A study of Mus musculus with 6 samples.

Results

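Immediate early genes are genes that cells transcribe within minutes of a stimulus without first making new protein, and 32 of them, fixed by name as a list, were followed here in lung fibroblasts. All 32 were found among the 43430 gene IDs of the count table. The cells came from male C57BL/6J mice aged 9 to 11 weeks and were flow-sorted from both lungs on PDGFRA. This receptor for platelet-derived growth factor is carried by many fibroblasts. Cells without the receptor were not the target of the sort, and markers of other cell types are given below. The room air group held 9 mice without CO2 exposure, and the hypercapnia group held 9 mice that breathed 10% CO2 for 10 days under normoxia. Cells of 3 mice were pooled for each replicate, which gave 3 libraries per group, named M1, M2 and M3 in room air and M4, M5 and M6 in hypercapnia. No genotype difference, transgene or further agent is named for either group, and each library averages over the mice of its pool.

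The list covers the subunits of AP-1 (the FOS and JUN proteins, which bind DNA as pairs), the EGR and KLF zinc finger factors, the NR4A orphan nuclear receptors, other leucine zipper factors, and proteins that end the response, such as phosphatases of MAP kinases and factors that hasten mRNA decay. Growth factors, mechanical stretch, cyclic AMP and stress switch these genes on through ERK and other MAP kinases, serum response factor (SRF) and CREB, and their short-lived mRNAs fall again once the stimulus ends. The same genes are known to be induced when solid tissue is dissociated with enzymes and sorted, so in sorted cells they are commonly read as a sign of isolation stress. How the lungs were dissociated, for how long, and in which order pools were handled was not stated in the labels, and the part of isolation in the levels below was not tested.

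The switch acts at the promoter, and the motifs known for it were looked up in the RefSeq promoter table (GRCm38.p6), which had a window from 250 bases before to 50 bases after the start site for 27 of the 32 genes. Fosl1, Egr1, Egr3, Klf10 and Ier2 had no window, so their motifs were not searched. A CArG box, the SRF motif, was present in the windows of 3 members (Dusp5, Egr2 and Zfp36), against 1.58% of the 9897 tested genes with a window. The cyclic AMP response element TGACGTCA was present in 3 members (Btg2, Dusp1 and Maff), against 3.57% of tested genes. The EGR site GCGNGGGCG was present in 12 of 27 members (44.4%), against 12.6% of tested genes, and the AP-1 site TGANTCA in 1 member (Csrnp1), against 5.94%. Over the windows of all genes, tested or not, the shares by gene were 1.81%, 2.03%, 6.27% and 8.97% for the CArG box, the cyclic AMP element, the EGR site and the AP-1 site. All 4 motifs were searched on both strands, no 2 matches overlapped in a member's window, and some genes have several windows. The window of Fos held none of the 4 motifs. Bases outside the windows were not searched, so a missing match does not mean that a gene lacks the motif. The windows of members had a median GC content of 63.3%, those of tested genes 61% and those of all genes 52.7%. The shares are a description of these letters and show neither binding nor a cause.

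Bases before the start site are shown for the 7 members with a CArG box, a cyclic AMP element or an AP-1 site. Members with an EGR site alone are not shown. Motifs stand in capitals, and each run is written 5′ to 3′ in the direction of the gene. Zfp36 (chr7:28379229-28379478, minus strand), Dusp5 (chr19:53528895-53529144, plus strand) and 1 window of Egr2 (chr10:67537619-67537868, plus strand) show CArG boxes, and Zfp36 also an EGR site. Btg2 (chr1:134079156-134079405, minus strand), Dusp1 (chr17:26508473-26508722, minus strand) and 1 window of Maff (chr15:79347270-79347519, plus strand) show the cyclic AMP element, Btg2 and Maff also an EGR site. Csrnp1 (chr9:119983024-119983273, minus strand) shows a pair of AP-1 sites.
Zfp36: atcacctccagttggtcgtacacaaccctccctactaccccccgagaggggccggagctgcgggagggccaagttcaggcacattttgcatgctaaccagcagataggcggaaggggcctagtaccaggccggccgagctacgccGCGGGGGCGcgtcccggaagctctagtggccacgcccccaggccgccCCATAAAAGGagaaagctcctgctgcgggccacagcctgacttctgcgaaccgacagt
Dusp5: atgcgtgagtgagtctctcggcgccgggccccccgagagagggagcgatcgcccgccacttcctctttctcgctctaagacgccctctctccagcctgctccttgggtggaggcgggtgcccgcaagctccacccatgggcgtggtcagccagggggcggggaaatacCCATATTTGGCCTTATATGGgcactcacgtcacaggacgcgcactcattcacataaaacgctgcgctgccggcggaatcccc
Egr2: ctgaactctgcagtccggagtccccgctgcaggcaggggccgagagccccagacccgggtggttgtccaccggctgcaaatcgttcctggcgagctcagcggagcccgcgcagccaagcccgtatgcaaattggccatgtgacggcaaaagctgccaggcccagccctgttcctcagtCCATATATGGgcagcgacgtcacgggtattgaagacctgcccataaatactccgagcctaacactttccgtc
Btg2: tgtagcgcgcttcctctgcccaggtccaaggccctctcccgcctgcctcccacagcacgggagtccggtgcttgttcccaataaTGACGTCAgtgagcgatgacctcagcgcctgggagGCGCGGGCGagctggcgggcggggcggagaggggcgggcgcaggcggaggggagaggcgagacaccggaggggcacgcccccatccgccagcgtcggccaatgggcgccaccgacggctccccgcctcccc
Dusp1: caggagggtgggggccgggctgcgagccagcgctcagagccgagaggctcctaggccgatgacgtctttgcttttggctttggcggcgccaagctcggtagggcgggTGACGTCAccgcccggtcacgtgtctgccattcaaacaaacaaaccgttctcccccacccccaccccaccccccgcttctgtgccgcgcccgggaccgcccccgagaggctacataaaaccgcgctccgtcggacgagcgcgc
Maff: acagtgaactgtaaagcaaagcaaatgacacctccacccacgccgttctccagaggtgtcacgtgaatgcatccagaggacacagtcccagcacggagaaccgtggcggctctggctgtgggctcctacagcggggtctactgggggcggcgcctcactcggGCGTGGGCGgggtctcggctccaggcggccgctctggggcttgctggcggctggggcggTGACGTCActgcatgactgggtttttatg
Csrnp1: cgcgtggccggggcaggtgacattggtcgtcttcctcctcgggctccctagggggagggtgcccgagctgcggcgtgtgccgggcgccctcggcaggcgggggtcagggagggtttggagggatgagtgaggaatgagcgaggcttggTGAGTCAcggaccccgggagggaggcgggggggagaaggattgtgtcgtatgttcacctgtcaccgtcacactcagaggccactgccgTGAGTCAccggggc
Counted from the start site, the CArG boxes of Dusp5 begin at -82 and -72 and lie end to end, and that of Egr2 begins at -72. The cyclic AMP elements of Btg2, Dusp1 and Maff begin at -166, -143 and -29.

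Total counts ran from 8999780 to 10198336 per library, and 3 counts correspond to between 0.281 and 0.354 CPM (counts scaled to a common library total with TMM composition factors computed here). The sorted cell type was checked with 10 fibroblast markers, Pdgfra and type I collagen genes among them. Their summed level lay between 33450 and 39150 CPM in every library. Single markers moved in both directions, with 6 negative and 4 positive log2 fold changes in hypercapnia by edgeR. Npnt was called lower (-0.44 ± 0.09 (SE), adjusted p = 0.0474), at 6647, 6613 and 6098 CPM in M1 to M3 and 5219, 4401 and 4658 CPM in M4 to M6. Of the 10 markers, 4 had an unadjusted p under 0.05 in edgeR, against 12% of all tested genes. Of 10 leukocyte markers 2 passed the filter on low counts, and Cd3e, Adgre1 and Marco were at 0 in all libraries. All 18 endothelial markers passed it, with a summed level of 2833, 2399 and 780 CPM in M1, M2 and M3 and of 4583, 3546 and 2798 CPM in M4, M5 and M6. The 10 epithelial markers summed to between 391 and 691 CPM, with mean deviations from their 6-library mean of 0.67, 0.50 and -0.57 on the log2 scale in M1 to M3 and 0.11, -0.73 and 0.03 in M4 to M6. The 5 mesothelial markers were scarce, with sums of 13.9, 25.3 and 16.2 CPM in M1 to M3 and 69.4, 9.55 and 28.5 CPM in M4 to M6. As sums and mean deviations both lists were lowest in M5, but their single markers were split. M5 was the lowest library in 5 of the 10 epithelial and 2 of the 4 tested mesothelial markers. Sftpb and Sftpa1 were highest there, at 45.3 and 41.2 CPM. Most immediate early genes were lowest in M5 as well, and the part of these cells in the results below was not tested. Counts from the mitochondrial genome took 0.688% to 1.1% of a library, most in M3. In RNA from bulk cells, fewer cells of a type and less RNA per cell cannot be told apart.

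The immediate early genes ranged from some of the most abundant transcripts of these cells to some of the scarcest, and their summed level differed widely between libraries of the same group. Per kilobase of exon, 9 members were among the 100 highest of the tested genes, while Fosl1, Egr3 and Dusp5 ranked 11108, 9612 and 9486. The 32 genes together took 3.60%, 2.21% and 1.54% of all counts in M1, M2 and M3 of room air. In hypercapnia they took 3.30%, 0.660% and 1.22% in M4, M5 and M6. The exact 95% binomial intervals of these shares, which cover counting error only, were no wider than 0.0122 percentage points on either side. The highest libraries, M1 and M4, came from different groups and lay close together, while M5 was the lowest of all 6, and the ranges of the groups overlapped. The JUN genes held the largest part in all libraries, with 0.873% of the counts of M1 and 0.155% of those of M5.

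**Figure D1:**
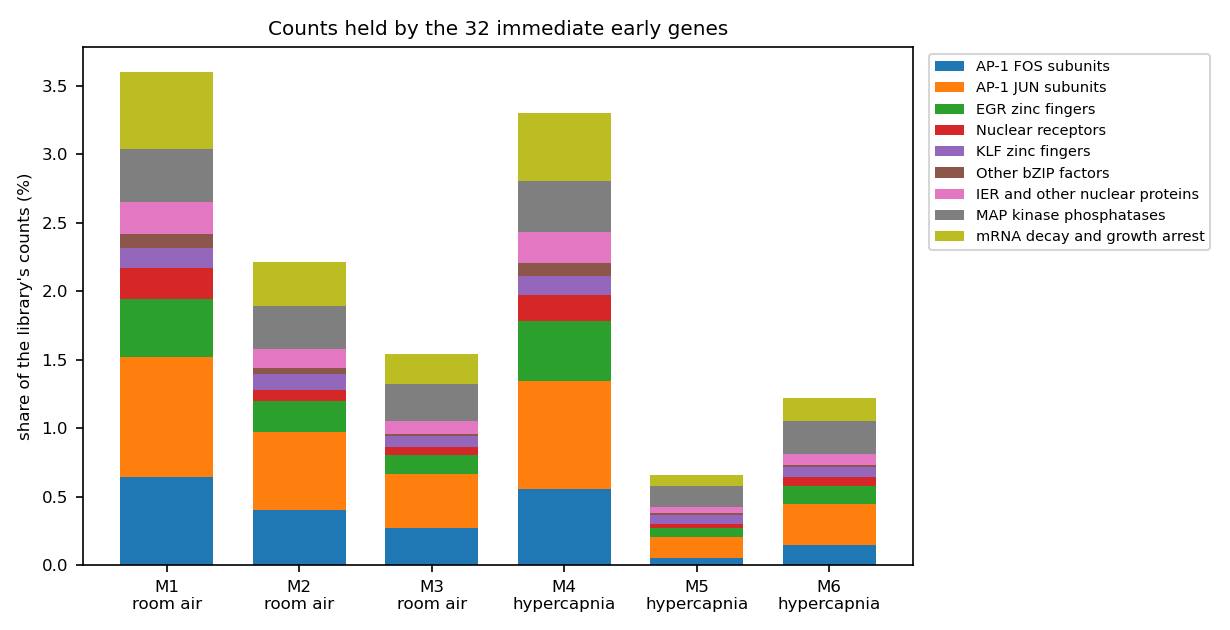
Share of each library's counts (percent, linear axis from 0) held by the 32 immediate early genes, stacked by role, for the room air libraries M1 to M3 and the hypercapnia libraries M4 to M6. M1 and M4 reach 3.60% and 3.30%, and M5 stands lowest at 0.660%.

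Among the FOS subunits, Fos, the partner of JUN in the classical AP-1 dimer (chromosome 12 from 85473890 to 85477273), stood at 5075, 3350 and 2040 CPM in M1, M2 and M3 and at 4077, 368 and 1062 CPM in M4, M5 and M6. M1 and M4 were high and M5 was low, and the groups overlapped. Per kilobase of exon it was the most abundant member, with a mean of 1132 CPM per kilobase over the 6 libraries, the 15th highest level of all 13005 tested genes on that scale. Fosb, whose product also pairs with JUN proteins, ran at 1533, 623 and 500 CPM in M1 to M3 and at 1468, 40.5 and 232 CPM in M4 to M6. Inside hypercapnia M4 was therefore 36.3-fold above M5 (exact 95% interval for counting error 32.9 to 40.1). Fosl2, an AP-1 subunit with a slower time course, had a narrower range of 90.8 to 219 CPM.

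Fosl1 stood apart from this family. It had 10, 4 and 21 counts in M1 to M3 and 35, 25 and 27 counts in M4 to M6, that is, 0.420 to 3.99 CPM, and it was the only member with every hypercapnia library above every room air library. A gap of this kind, in either direction, was present in 18% of all tested genes, so 1 of the 31 tested members is below the background. Of the exon bases of Fosl1, 57.2% are shared with Ccdc85b on the other strand, and the labels give no strand setting for the counting, so reads of these genes cannot be told apart.

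Of the JUN subunits, Jun and Junb had the same highest and lowest libraries as Fos, and Jund did not. Jun (chromosome 4 from 95049034 to 95052222) stood at 4669, 2859 and 1947 CPM in M1 to M3 and at 4179, 738 and 1343 CPM in M4 to M6. Junb stood at 3693, 2040 and 1255 CPM and at 3144, 436 and 1047 CPM in the same order. Both were highest in M1 and M4 and lowest in M5. Jund, the JUN subunit that is present in resting cells, varied less, with 904, 929 and 671 CPM in M1 to M3 and 725, 317 and 457 CPM in M4 to M6. It was highest in M2, and M4 lay below both M1 and M2 but above M3, so the groups overlapped there too. In Jund 52.6% of the exon bases are shared with the antisense model Gm11175, and in Jun and Junb 7.28% and 7.52% with Junos and Prdx2.

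**Figure D2:**
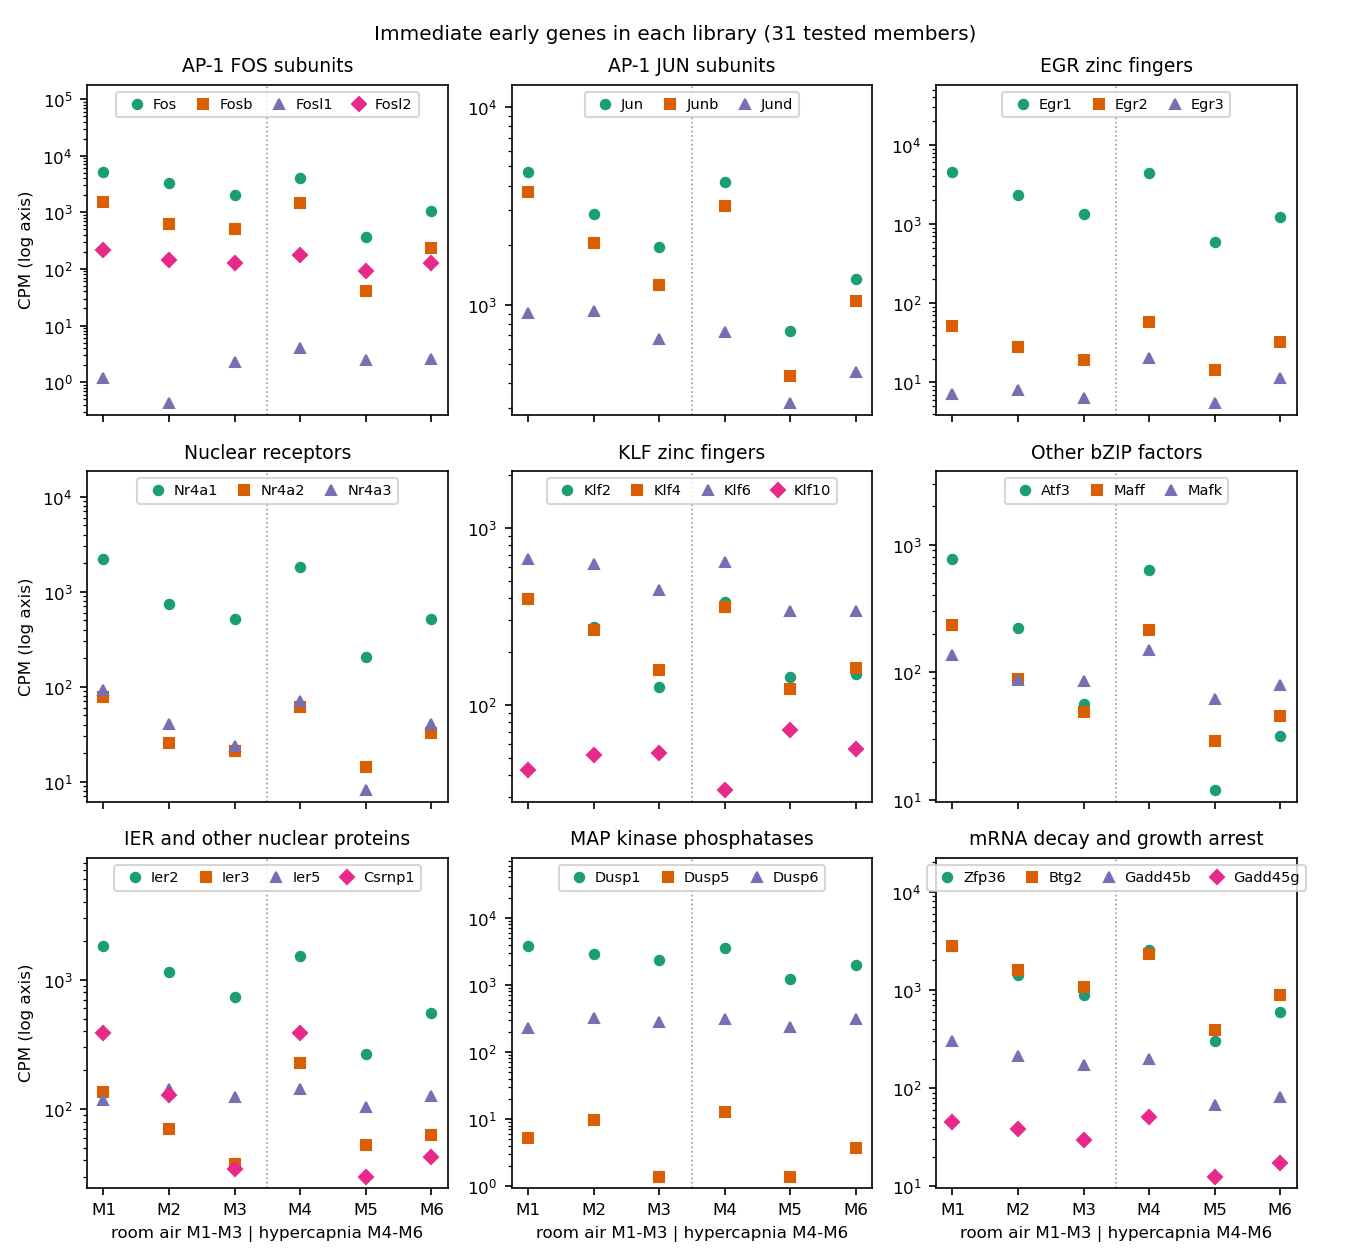
Level of the 31 tested immediate early genes in each library (CPM, log axis), in 9 panels by role; each point is 1 library, room air to the left of the dotted line and hypercapnia to the right. Most members stand highest in M1 and M4 and lowest in M5, while Klf10 is highest in M5 and Dusp6 lowest in M1.

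Of the EGR factors, Egr1, a growth factor induced activator, ranged from 598 CPM in M5 to 4501 CPM in M1, with M4 next at 4455 CPM. Egr2 ran from 14.5 to 57.4 CPM and Egr3 from 5.41 to 20.1 CPM, both lowest in M5 and highest in M4. The NR4A receptors, which act without a known hormone, moved in the same way. Nr4a1 stood at 2212, 747 and 523 CPM in M1 to M3 and at 1809, 208 and 514 CPM in M4 to M6. M1 and M4 were more than 2-fold above every other library for it. Nr4a2 (14.2 to 78.5 CPM) and Nr4a3 (8.17 to 93.2 CPM) were scarcer, with the same highest and lowest libraries.

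Atf3, a stress-induced leucine zipper factor on chromosome 1 from 191170296 to 191218039, had the widest range of all members. It stood at 772, 224 and 56.8 CPM in M1, M2 and M3 and at 636, 12.0 and 31.7 CPM in M4, M5 and M6. M1 was 13.6-fold above M3 within room air (interval 12.5 to 14.9) and M4 was 53.0-fold above M5 within hypercapnia (44.3 to 63.9), and the groups overlapped widely. Csrnp1, a nuclear protein named for its cysteine and serine rich stretch, stood at 389, 129 and 34.3 CPM in M1 to M3 and 385, 29.9 and 42.5 CPM in M4 to M6. Its ratios within the groups were 11.3 (10.1 to 12.8) and 12.9 (11.5 to 14.5). Maff, a small MAF factor, ranged from 29.1 to 237 CPM, and its relative Mafk from 61.6 to 149 CPM.

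The KLF factors split. Klf4 (123 to 396 CPM) and Klf6 (338 to 667 CPM) were highest in M1. Klf2, which is also known as a flow-responsive factor of endothelium, stood at 398, 276 and 126 CPM in M1 to M3 and 382, 144 and 150 CPM in M4 to M6. Its lowest library was M3, where the summed endothelial markers were lowest too, at 780 CPM, and their part in the level of Klf2 was not tested. Klf10, a factor induced by transforming growth factor beta, ran the other way, at 42.7, 51.9 and 53.2 CPM in M1 to M3 and 32.9, 72.5 and 56.4 CPM in M4 to M6. It was lowest in M4 and highest in M5, where most other members were lowest.

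Among the IER proteins, small nuclear or cytoplasmic products of the response, Ier2 stood at 1833, 1137 and 738 CPM in M1 to M3 and at 1515, 265 and 553 CPM in M4 to M6. Ier3 ranged from 37.9 CPM in M3 to 229 CPM in M4. Ier5 had a narrow range, with 104 CPM in M5 and 143 CPM in M4 as its extremes. Of the phosphatases that switch MAP kinases off, Dusp1 was abundant, at 3851, 2884 and 2334 CPM in M1 to M3 and 3530, 1239 and 1962 CPM in M4 to M6. Dusp6, the cytoplasmic phosphatase of ERK, held to between 230 and 320 CPM and was lowest in M1. Dusp5, a nuclear phosphatase of ERK, was scarce and variable, at 5.19, 9.77 and 1.38 CPM and at 12.9, 1.38 and 3.66 CPM in the same order, with 22.1% of its exon bases shared with an antisense model. Dusp2 was the only member under the filter, with 4 counts in M1 and 0 in the other libraries, where a count of 0 allows up to 0.342 CPM (3 counts in M4, the shallowest of them).

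The members grouped under mRNA decay and growth arrest were all lowest in M5. Zfp36, which marks AU-rich mRNAs for decay, ranged from 305 CPM in M5 to 2830 CPM in M1. Btg2, an antiproliferative cofactor of mRNA deadenylation, stood at 2820, 1588 and 1085 CPM in M1 to M3 and at 2303, 387 and 891 CPM in M4 to M6. Of the stress sensors of the GADD45 family, Gadd45b stood at 304, 214 and 173 CPM in M1 to M3 and at 199, 67.8 and 81.1 CPM in M4 to M6. Only M4 of the hypercapnia libraries reached the room air range of Gadd45b. Gadd45g ran from 12.5 to 50.6 CPM, highest in M4 and lowest in M5.

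Counted over the members, the libraries kept nearly 1 order. M1 or M4 was the highest library in 28 of 31 tested members, against 32.4% of all tested genes, and M5 was the lowest in 25, against 16.9%. M1 and M4 were the 2 highest libraries in 23 members (74.2%), against 8.73% of all tested genes. Within room air 24 members had the order M1, M2, M3 from high to low (20.3% of all tested genes), and within hypercapnia 28 had the order M4, M6, M5 (15.2%). Jund, Klf10 and Dusp6 were highest in a library other than M1 or M4. Members share libraries and are not independent, so these shares carry no test. Over the 9 pairs of libraries from different groups, the size of the median log2 difference over members ran from 0.10 (M3 and M6) and 0.14 (M1 and M4) to 1.83 (M1 and M5). Over the 6 pairs within a group it ran from 0.54 (M2 and M3) to 2.09 (M4 and M5). Over all tested genes the median difference lay between -0.03 and 0.02 in every pair of libraries.

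Most of these genes spread more inside the groups than genes of like level, and some other lists spread widely too. The SD of log2 CPM, pooled over both groups, had a median of 1.004 over the 31 tested members and of 0.24 over all 13005 tested genes. It was 0.81 over the 18 endothelial markers and 0.59 over the 46 tested delayed early genes described below. Over the other lists it ran from 0.14 (10 fibroblast markers) to 1.08 (4 tested mesothelial markers). Set against the 500 tested genes nearest in mean level, 25 members lay above the 95th percentile of this SD and all 31 lay above the median. Atf3 (2.49), Fosb (1.93) and Csrnp1 (1.88) had the largest SD, and Ier5 (0.19) and Dusp6 (0.23) the smallest. In 20 members the highest room air library was at least 2-fold above the lowest (19% of all tested genes), in 26 this held within hypercapnia (13.7%), and in 19 within both groups (8.28%). In the same order the numbers were 20, 29 and 19 for the delayed early genes and 18, 3 and 3 for the endothelial markers. Of the sum of squares over the 6 libraries, a median of 15.3% lay between the groups in the members and 18.1% in all tested genes.

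**Figure D3:**
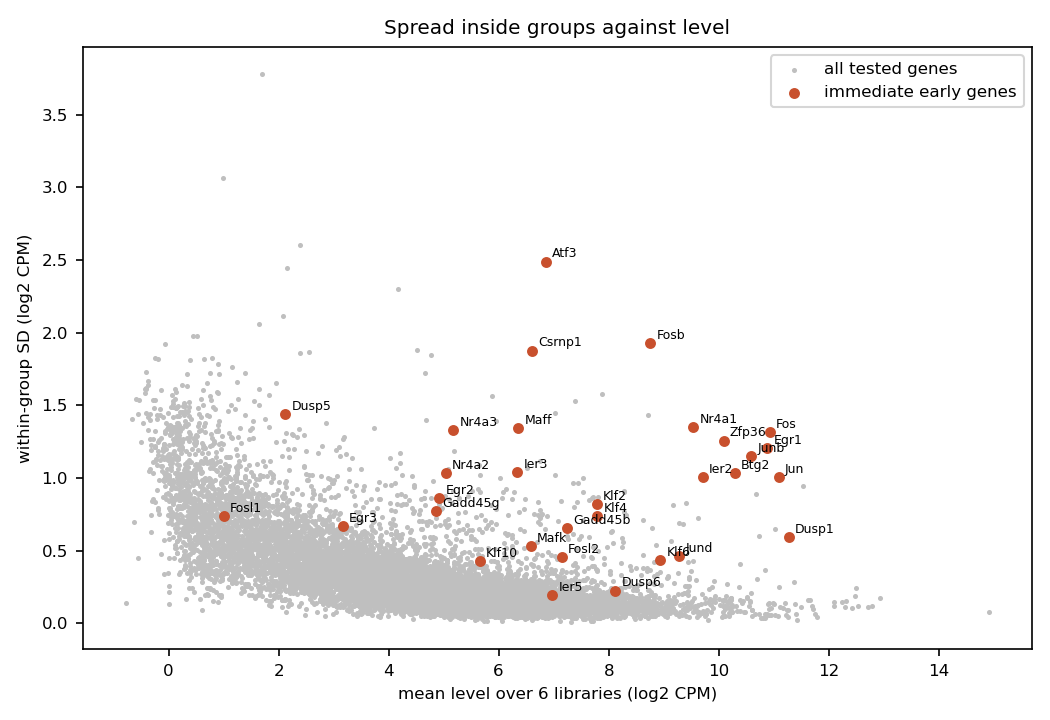
Within-group SD (log2 CPM, pooled over both groups of 3 libraries) against the mean level over 6 libraries (log2 CPM) for all 13005 tested genes (grey) and the 31 tested immediate early genes (orange, named). Atf3, Fosb and Csrnp1 reach 2.49, 1.93 and 1.88, while Ier5 and Dusp6 lie at 0.19 and 0.23.

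Hypercapnia was set against room air to see whether 10 days of high CO2 shifted these genes. None of the 31 tested members passed edgeR's quasi-likelihood test with Benjamini-Hochberg adjustment over all genes, a call that 1.22% of all tested genes received (0.523% higher and 0.7% lower). At an unadjusted p under 0.05 there were 2 members, Jund and Gadd45b, against 12% of all tested genes. DESeq2 and limma-voom also called 0 members, with 1 and 3 at an unadjusted p under 0.05. The median log2 fold change of the members was -0.38 and that of all tested genes 0.01, and 24 of 31 members were negative. By limma-voom, which averages log values, the median was -0.63, with Fos at -1.49, Fosb at -1.73 and Atf3 at -1.85, against -0.93, -0.61 and -0.63 by edgeR. With SEs of up to 1.18 on the log2 scale (Atf3), these values did not pass against the spread between libraries.

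Gadd45b had the lowest log2 fold change, -0.99 ± 0.36 (SE), with means of 230 ± 67.1 CPM (room air) and 116 ± 72.4 CPM (hypercapnia, SD, n = 3) and an edgeR adjusted p of 0.265. Jund, with 835 ± 142 and 500 ± 207 CPM, had -0.74 ± 0.25 and an adjusted p of 0.232. Both were lower in 2 of 3 hypercapnia libraries than in every room air library. Fos had -0.93 ± 0.65 (3488 ± 1522 and 1836 ± 1971 CPM, edgeR adjusted p = 0.655), with an SD above the mean in hypercapnia. The highest log2 fold changes belonged to Fosl1 (1.22 ± 0.64) and Egr3 (0.78 ± 0.41), with edgeR adjusted p of 0.499 and 0.501. Mean levels were 1.28 ± 0.908 and 2.99 ± 0.863 CPM (room air, then hypercapnia) for Fosl1, and 7.14 ± 0.917 and 12.3 ± 7.36 CPM for Egr3. Ier5 (-0.04 ± 0.14) and Dusp6 (0.04 ± 0.15) had the smallest SEs of the list.

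These group differences moved with single libraries. Without M4, 4 members were called lower in hypercapnia by edgeR: Fos (-2.29, adjusted p = 0.0381), Jund (-1.11, 0.0209), Gadd45b (-1.63, 0.00904) and Gadd45g (-1.33, 0.0291). At that setting 0.738% of all tested genes were called lower. The median log2 fold change of the members moved from -0.38 to -1.10 without M4, to 0.04 without M1, to -0.65 without M3, to -0.06 without M5 and to -0.18 without M6. M1 and M4, the library of each group with the highest share, were also left out together, an alternative chosen after seeing the data. At that setting 7 members were called lower (Fos, Jun, Jund, Atf3, Zfp36, Gadd45b and Gadd45g), as were 0.814% of all tested genes. M1 and M4 were picked by the counts of these same members, so the 7 calls are no evidence of a group difference. Without any filter on low counts 14 of 32 members were called, 13 lower and Ier3 higher, against 3.62% of all genes in that fit. There edgeR's estimate of the prior degrees of freedom was infinite, so that every gene took the variance of the trend and its own spread carried no weight, whereas it was 6.59 with the filter.

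**Figure D4:**
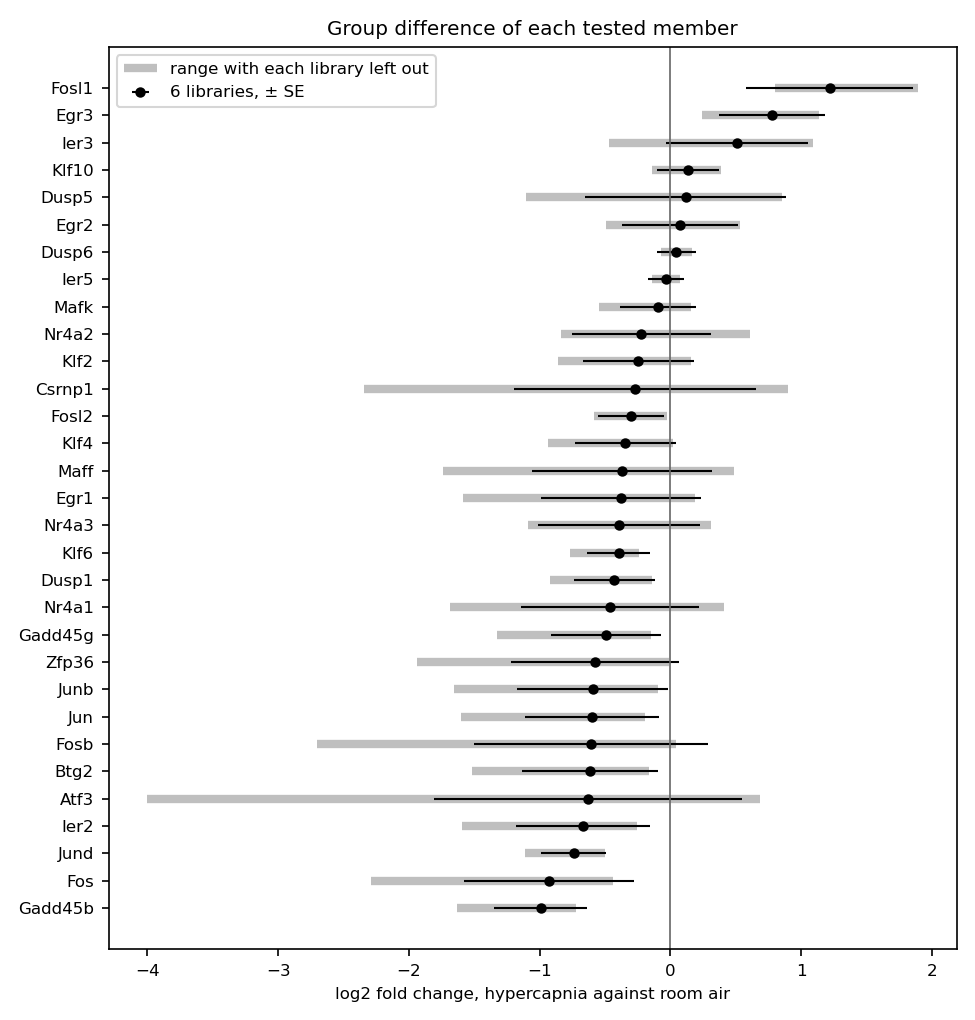
Log2 fold change of hypercapnia against room air for the 31 tested immediate early genes (black points, with SE bars from edgeR on 6 libraries) and the range of the value when each library is left out in turn (grey bars). Most bars of the variable members cross 0; that of Atf3 runs from -4.00 to 0.69.

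The other genes of the response were read from lists, some of which share genes. Of 46 tested delayed early and other rapid response genes, 0 passed the edgeR test over all genes. In edgeR 3 had an unadjusted p under 0.05, against 12% of all tested genes. The median log2 fold change of the 46 was -0.22. Phlda1 (-0.32 ± 0.11, adjusted p = 0.243) and Zfp36l1 (-0.32 ± 0.14, 0.403) had the smallest p. M1 and M4 were the 2 highest libraries in 36 of the 46, and the mean deviation of this list from its 6-library mean was 0.74, 0.04 and -0.36 on the log2 scale in M1 to M3 and 0.72, -0.76 and -0.38 in M4 to M6. For the immediate early genes it was 0.88, 0.22 and -0.36 in M1 to M3 and 0.93, -1.24 and -0.44 in M4 to M6. In both lists M1 and M4 were the highest libraries, followed by M2, M3, M6 and M5.

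Of 17 heat shock genes, 15 chaperones and co-chaperones and the factors Hsf1 and Hsf2 that switch them on, 0 passed. In edgeR 5 had an unadjusted p under 0.05, against 12% of all tested genes. The median log2 fold change of the 17 was -0.38, with 16 negative values. Hspa5, the chaperone of the endoplasmic reticulum (-0.54 ± 0.15, edgeR adjusted p = 0.138), and Hspb1 (-0.97 ± 0.31, 0.202) had the smallest p. M5 was the lowest library in 14 of the 17, and M1 and M4 were the 2 highest in 9. Of 19 feedback inhibitors of growth factor and MAP kinase signalling 0 passed, with a median of -0.05. Btg1 (-0.57 ± 0.18, edgeR adjusted p = 0.187) and Spry1 (-0.34 ± 0.14, 0.375) came first. Of 23 further members of the families on the list, transcription factors as well as relatives of Zfp36, Btg2 and Gadd45b, 0 passed as well, with Atf5 at -0.36 ± 0.10 (edgeR adjusted p = 0.148) and Btg1, which is on this list too. Unadjusted, 2 of the 19 and 5 of the 23 had an edgeR p under 0.05, against 12% of all tested genes.

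**Figure D5:**
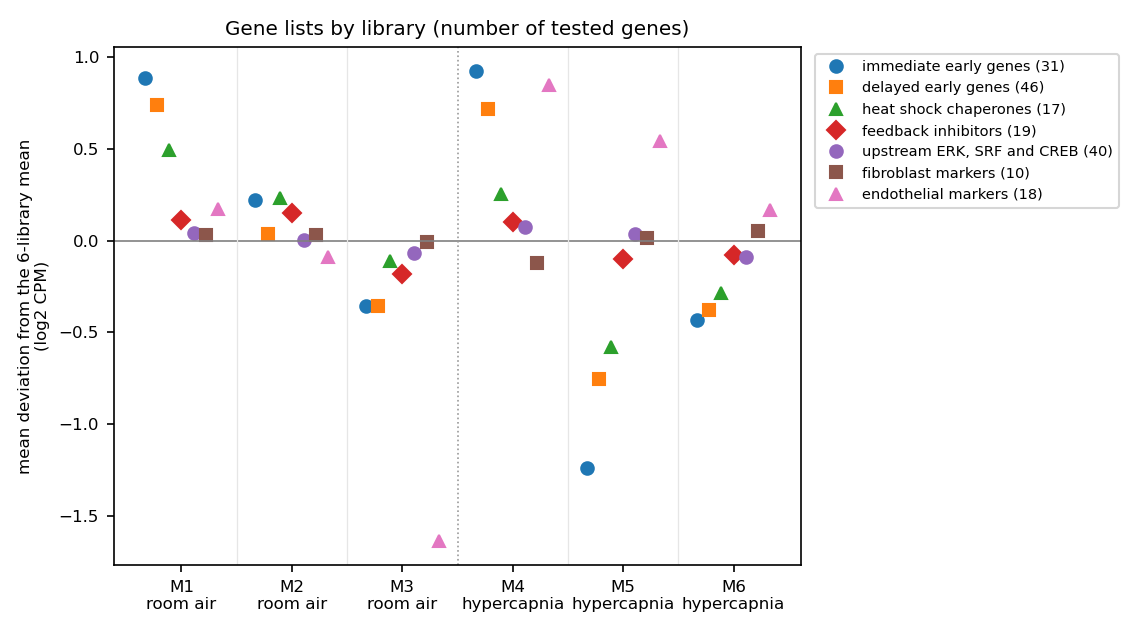
Mean deviation of each gene list from its mean over 6 libraries (log2 CPM) in the room air libraries M1 to M3 and the hypercapnia libraries M4 to M6, with the number of tested genes in brackets. Immediate early and delayed early genes are high in M1 and M4 and low in M5. Heat shock genes are highest in M1 (0.49), with M4 (0.26) close to M2 (0.23), and lowest in M5. Upstream genes stay between -0.09 and 0.08 and fibroblast genes between -0.12 and 0.05, and endothelial markers are lowest in M3.

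The kinases and factors that act upstream spread little within the groups as a list, with exceptions. The mean log2 deviation of 40 tested genes of the ERK, SRF and CREB machinery lay between -0.09 and 0.08 in all 6 libraries. Rises and falls of single genes can cancel in such a mean. The median SD within groups was 0.16. Srf, which encodes the factor that binds CArG boxes, stood at 131, 106 and 78.7 CPM in M1 to M3 and 143, 66.7 and 117 CPM in M4 to M6, highest in M4 and lowest in M5. Elk3 (20.3 to 82.5 CPM) and Rps6ka1 (5.73 to 30.2 CPM) had the widest spread of the list, and these genes were singled out after their values were seen. Of these, 1 rose: Map2k3, a kinase that activates p38, stood at 42.9, 43.8 and 43.2 CPM in M1 to M3 and 66.1, 60.3 and 71.4 CPM in M4 to M6. The groups did not overlap, and edgeR gave a log2 fold change of 0.61 ± 0.12 (adjusted p = 0.0428). The call was lost without any 1 of the 6 libraries, with adjusted p between 0.082 and 0.187 and log2 fold changes between 0.54 and 0.67. None of the other upstream genes passed in edgeR, while DESeq2 called Map2k3, Mapk14 and Rps6ka1. In edgeR 8 of the 40 had an unadjusted p under 0.05, against 12% of all tested genes. The groups did not overlap in 10 of the 40, against 18% of all tested genes. A median of 24.5% of the sum of squares lay between the groups in the 40, against 18.1% in all tested genes. Of the 18 endothelial markers 0 passed and 11 had an unadjusted p under 0.05 in edgeR, against 12% of all tested genes. All 18 markers had positive log2 fold changes (median 0.88). They shared the room air order of most immediate early genes, with M1, M2, M3 from high to low in 15 of 18. M1 or M4 was highest in 16 of 18, and it was M4 in each of these. M1 and M4 were the 2 highest libraries in 1 of the 18, against 23 of the 31 tested immediate early genes. M5 was the lowest library in 0 of the endothelial markers, and their mean deviation was 0.55 in M5 and -1.64 in M3.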

How the data were processed

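RNA-seq read counts per gene were analysed for 6 libraries of sorted lung fibroblasts, 3 per group. The deposited table holds whole-number counts, taken from the values to be raw counts without normalization. The submitters' processing notes name HTSeq, TopHat2 2.1.0, bcl2fastq 2.17.1.14, FastQC and the build mm10, without roles. Annotation release and strand setting: not given in the sources used here. Column names give the group but match no sample title, so columns were assigned to groups only. Symbols came from GENCODE M21 for 42462 IDs. Counts were filtered by group (minimum count 10), scaled by TMM and tested with edgeR 4.0.16 (R 4.3.3), two-sided, with the group as the only term, 4 residual degrees of freedom and a threshold of 0.05 on adjusted p. DESeq2 1.42.0 and limma 3.58.1 were alternatives. SE is the log2 fold change divided by the square root of F, and log2 CPM used a prior count of 2. The fit was first tested on simulated data. No pair of libraries agreed within sampling noise (chi-square per degree of freedom at least 12.6). The members and lists were chosen with earlier results of these data known. Libraries are pools of 3 mice, and p-values measure the spread between pools. All 32 members are reported. Values in every library go to those with a p under 0.05, the 6 highest per exon length, the 6 widest within a group and those under the filter. The others are given as ranges or where a role calls for them. From the other response lists and the upstream list, genes past the threshold or the 2 with the smallest p are named. Cell type markers are given by list, with Npnt, the only 1 past the threshold, given in every library.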

Additional observations from a re-analysis of the deposited data

How the results depend on the processing

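The number of genes called over the whole table, 159, became 435 by DESeq2, 255 with robust dispersion and 756 without a filter. It became 45 without M3 and M5 and ran from 24 to 148 with each library left out. Leaving out M3 and M5 together, or M1 and M4 together, was not planned beforehand. These libraries had the lowest and the highest share of immediate early genes in their groups. The number of immediate early genes called, 0, became 14 without a filter and 7 without M1 and M4, ran from 0 to 4 with each library left out, and was 0 under all other settings run. The 1 call among the upstream and other response lists became 5 by DESeq2, 21 without a filter, 6 without M1 and M4 and 0 without M3 and M5, and ran from 0 to 4 with each library left out. RLE factors, total counts alone, a minimum of 1 CPM in 3 libraries and library sizes without the 32 genes changed no such count beyond 1.5 times. Of the members, Ier5 turned to 0.023 with total counts alone and to 0.059 without M3 and M5, where Klf10 turned to -0.079 and Mafk to 0.033. Egr2 and Dusp5 turned to -0.034 and -0.11 by limma-voom and to -0.045 and -1.15 without M1 and M4, where Dusp6 turned to -0.14. With each library left out, 17 members took both signs: Fosb -2.70 to 0.045, Egr1 -1.59 to 0.19, Egr2 -0.50 to 0.54, Nr4a1 -1.69 to 0.41, Nr4a2 -0.84 to 0.61, Nr4a3 -1.09 to 0.31, Klf2 -0.86 to 0.16, Klf4 -0.93 to 0.022, Klf10 -0.14 to 0.39, Atf3 -4.00 to 0.69, Maff -1.74 to 0.49, Mafk -0.54 to 0.15, Ier3 -0.47 to 1.09, Ier5 -0.14 to 0.077, Csrnp1 -2.34 to 0.90, Dusp5 -1.10 to 0.86 and Dusp6 -0.074 to 0.16. The cause of these changes was not tested, and neither was the part of the infinite prior degrees of freedom without a filter. The median within-group SD of the members and the number highest in M1 or M4 kept within their spread under the scalings, prior count and filter tried. No paired analysis was possible because the columns carry no replicate numbers shared between the groups. The size of difference that 3 libraries per group could detect was not measured.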

Other observations

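The genes with the widest spread inside the groups, whether on a list or not, were looked at after their values were seen. Among the 9443 tested genes whose mean reached 10 CPM, 28 were immediate early genes. The 20 with the largest within-group SD held 5 of these 28 and the 50 with the largest held 13. All of the 20 were highest in M1 or M4, against 32.4% of all tested genes. Il6, the cytokine interleukin 6, stood at 27.3, 4.52 and 2.76 CPM in M1, M2 and M3 and at 44.1, 0.295 and 2.25 CPM in M4, M5 and M6. Cxcl1, a neutrophil chemokine, stood at 99.5, 20.9 and 7.75 CPM and at 77.4, 1.67 and 13.6 CPM in the same order. Ptgs2, the inducible cyclooxygenase, was at 115 CPM in both M1 and M4 and at 9.25 to 17.3 CPM in the other libraries. The metallothionein genes Mt1 and Mt2 and the feedback inhibitor of the EGF receptor Errfi1 were also among the 20. Il6, Cxcl1, Ptgs2 and Errfi1 are on the list of delayed early genes described above. Not all of the 20 had M1 and M4 high together. Bpifa1 stood at 0.708 CPM in M1 and 59.6 CPM in M4. Cd74 stood at 65.4 CPM in M1, 58.3 CPM in M2 and 21.2 CPM in M4.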
